A study of Mus musculus with 3 samples.

Results

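The genes described are 8 of the phosphoinositide 3-kinase (PI3K) pathway, taken by name from 22180 measured genes. They are Pik3cg, Pik3cd and Pik3ca, which encode the catalytic chains p110γ, p110δ and p110α, the regulatory chains Pik3r1 (p85α), Pik3r5 (p101) and Pik3r6 (p84), Plek (pleckstrin), and Inpp5d, which encodes the phosphatase SHIP1. Each of the 8 has 1 probe set on the array, and none of these probe sets names a further gene. The set was chosen by name with the log2 levels of these genes on the same 3 arrays known, Plek and Pik3cg being high in mature mast cells, so the levels are a description and no test of them is given.

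Cells of the peritoneal cavity of female, naive BALB/c mice aged 10 to 11 weeks were sorted into 3 populations. These were mast cell progenitors, their mature counterpart, and innate lymphoid cells of type 2. No group was treated. Cells of 5 mice were pooled before the sort, and 100 cells of each population were lysed, amplified and hybridised to 1 array. Both mast cell gates took lineage negative or low cells with high c-kit that carried FcεRI, T1/ST2 and intermediate CD16/32 but neither CD127 nor CD25. The progenitor gate took cells of low side scatter with high integrin β7, and the mature gate cells of high side scatter with negative to intermediate integrin β7. The innate lymphoid gate took lineage negative cells with CD127, CD25 and T1/ST2, without FcεRI or CD16/32 and with little or no c-kit. Each population has 1 array, so no value has an error and no difference between populations can be tested. In sorted pools of this kind, fewer cells carrying a transcript and less transcript per cell cannot be told apart.

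Class I PI3Ks phosphorylate a membrane lipid to PIP3, which recruits proteins with pleckstrin homology (PH) domains, among them the kinases Akt and Btk. p110α and p110δ pair with p85-type chains and act below tyrosine kinase-coupled receptors, such as Kit and the IgE receptor FcεRI of mast cells. p110γ pairs with p101 or p84 and is driven by G protein βγ subunits and Ras. In mouse mast cells p110γ is known to amplify degranulation through G protein-coupled receptors. SHIP1 removes the 5-phosphate of PIP3 and is known as a brake on mast cell degranulation.

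Of the 8 genes, Plek, Pik3cg and Inpp5d had higher levels in mature mast cells than on both other arrays, and the remaining 5 had levels that were equal or nearly so on all 3. All values are log2 levels as deposited, and a difference of 1 is 2-fold. To be counted, a gene had to differ by 4-fold or more between 2 arrays and to lie above the array's median in the brighter one. The medians were 6.32 on the progenitor array, 6.30 on the mature array and 6.30 on the innate lymphoid array.

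Pik3cg, the gene of p110γ, was at 6.17 on the progenitor array, 8.47 on the mature array and 6.07 on the innate lymphoid array. The mature array was above its median and the other arrays were below theirs. Because a level under the median may be background, the fold is given against the median of the dimmer array. Pik3cg was thus at least 4.44-fold higher in mature mast cells than in progenitors, with a log2 difference of progenitors minus mature of -2.29. It was at least 4.48-fold higher in mature than in innate lymphoid cells, with a log2 difference of 2.39. Progenitors and innate lymphoid cells differed by 0.10 on the log2 scale.

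Pik3r5 and Pik3r6, the partners of p110γ, did not share this pattern on these arrays. The level of Pik3r5 was 7.08 on each of the 3 arrays, and that of Pik3r6 was 7.05 on each. The values were equal to the last deposited decimal. Such ties are frequent here: 47.9% of all genes had 1 level on all 3 arrays, and 4 of the 8 genes described were tied in this way. RMA, the method behind these values, summarises the probes of a set by median polish, and a tie says that this summary gave the arrays the same value. It does not show that the transcripts were equally abundant, and a small difference of a tied gene would not be seen.

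Pik3cd, the gene of p110δ, was at 5.70 on each of the 3 arrays, below the median of each. Pik3ca, the gene of p110α, was at 6.58 on each. Pik3r1, the gene of p85α, was at 7.52 on the progenitor array, 7.56 on the mature array and 7.53 on the innate lymphoid array. No difference of these genes between populations could be resolved. The level of Pik3cd says nothing of the amount of p110δ protein, which was not measured.

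As measured, Plek had the largest difference of the 8 genes, although that of Pik3cg is known only as a lower bound. Pleckstrin carries PH domains and is known as a major substrate of protein kinase C in platelets and leukocytes. Its log2 level was 6.95 on the progenitor array, 10.08 on the mature array and 6.95 on the innate lymphoid array. All 3 levels were above the array medians, and the lower ones were tied. Some markers of other cell types lay as high on every array, with the B cell gene Pax5 at 7.27 and the platelet gene Itga2b at 7.10. The lower levels of Plek may therefore be background too, and its fold a lower bound. As measured, the level in mature cells was 8.71-fold that on either of the other arrays, a log2 difference of 3.12 for mature minus innate lymphoid cells.

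Inpp5d, the gene of SHIP1, was higher in mature cells by a smaller margin. Its log2 level was 7.21 on the progenitor array, 8.34 on the mature array and 7.25 on the innate lymphoid array. As measured, the mature level was 2.19-fold that of progenitors and 2.13-fold that of innate lymphoid cells, so it did not reach 4-fold in either comparison. The lower levels were no higher than that of Pax5 and may be background, so these folds may be lower bounds. On these arrays the transcripts of an enzyme that makes PIP3 and of one that removes it were both at higher levels in mature cells.

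**Figure D1:**
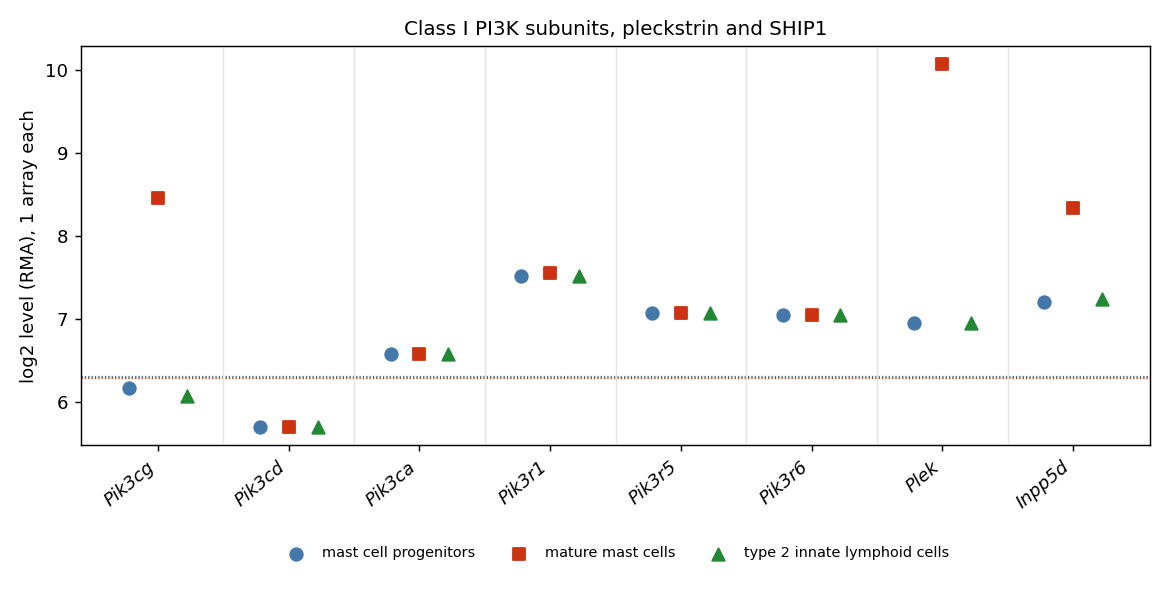
Log2 level of the 8 genes on each array, with 1 point per population (blue circles for progenitors, red squares for mature mast cells, green triangles for innate lymphoid cells) and dotted lines at the array medians. Plek, Pik3cg and Inpp5d stand above 8 in mature mast cells and between 6.07 and 7.25 elsewhere, while the points of the other genes lie level.

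The counts are set beside the share of all 22180 genes that passed the same rule. Against progenitors, 2 of the 8 genes were at least 4-fold higher in mature mast cells (Pik3cg and Plek), where 0.834% of all genes were, and none was higher in progenitors, where 0.113% were. At 2-fold the count was 3 of 8 higher in mature cells, with Inpp5d, beside 1.93% of all genes, and 0 higher in progenitors, beside 0.509%. Against innate lymphoid cells, 2 of 8 were 4-fold or more higher in mature cells (all genes 0.573%) and 0 lower (0.401%). At 2-fold 3 were higher (all genes 1.34%) and 0 lower (1.26%). These comparisons share the mature array, and the genes were chosen for these contrasts, so nothing is read from the shares.

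Bright genes passed the rule more often. Among genes with a level above 8 on either array, 16.4% exceeded progenitors by 4-fold or more in mature cells and 9.6% exceeded innate lymphoid cells. Of the 8 genes, 3 were above 8 in mature cells and 0 on the other arrays. Of all 22180 genes, 788 were above 8 on the mature array, 619 on the progenitor array and 811 on the innate lymphoid array.

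Between progenitors and innate lymphoid cells no difference of these genes was counted. At 4-fold 0 of 8 were higher in progenitors (all genes 0.207%) and 0 higher in innate lymphoid cells (all genes 0.888%). At 2-fold the counts were also 0 and 0, beside 0.766% and 1.88% of all genes. The difference of Pik3cg was 0.10, that of Inpp5d, progenitors minus innate lymphoid, was -0.04, and that of Plek was 0. Of the 8 genes 5 were tied between these arrays, as were 57% of all genes. With these ties, and with Pik3cg below the median on both arrays, a difference between these populations may be missed.

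**Figure D2:**
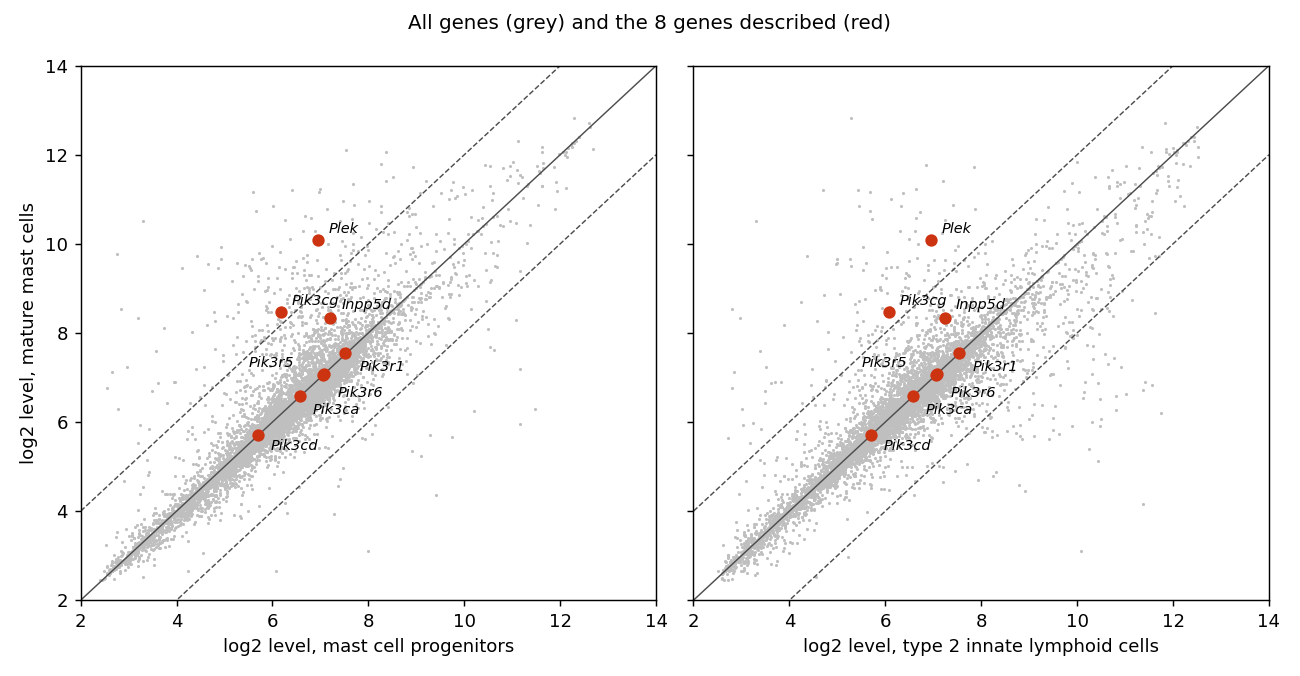
Log2 level in mature mast cells (vertical axis) against that in progenitors (left) and in innate lymphoid cells (right), with all genes in grey and the 8 genes in red; the solid line marks equal levels and the dashed lines 4-fold. Plek and Pik3cg lie above the upper dashed line in both panels, Inpp5d lies between the lines, and the other genes lie on or next to the line of equal levels.

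The bases before the transcription start of the 3 genes that were higher in mature cells are shown because these genes shared one pattern on the arrays. They are the 250 bases before the start in the RefSeq promoter table of GRCm38.p6, in the direction of transcription. Capitals mark the GATA motif GATAA, the PU box GAGGAA and the E-box CACATG, on either strand, which are motifs of the GATA factors, PU.1 and MITF. Where several starts are listed, the most upstream is shown. The Pik3cg window is chr12:32208660-32208909 on the minus strand, the Plek window chr11:17008719-17008968 on the minus strand and the Inpp5d window chr1:87620062-87620311 on the plus strand.
Pik3cg: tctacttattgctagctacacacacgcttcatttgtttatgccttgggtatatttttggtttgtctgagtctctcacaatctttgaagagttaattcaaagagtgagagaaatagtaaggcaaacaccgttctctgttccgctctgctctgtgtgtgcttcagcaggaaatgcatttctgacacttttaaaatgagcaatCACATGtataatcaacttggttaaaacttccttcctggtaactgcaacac
Plek: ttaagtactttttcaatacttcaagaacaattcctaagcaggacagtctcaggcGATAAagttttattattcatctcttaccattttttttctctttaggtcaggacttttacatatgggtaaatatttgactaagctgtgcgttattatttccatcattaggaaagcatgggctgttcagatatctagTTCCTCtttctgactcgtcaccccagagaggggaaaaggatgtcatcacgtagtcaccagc
Inpp5d: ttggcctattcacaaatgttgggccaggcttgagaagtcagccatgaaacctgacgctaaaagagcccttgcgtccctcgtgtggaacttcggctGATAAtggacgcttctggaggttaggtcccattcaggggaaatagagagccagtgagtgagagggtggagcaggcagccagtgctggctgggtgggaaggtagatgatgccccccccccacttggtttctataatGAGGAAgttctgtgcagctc

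In these windows the Plek promoter held a GATA motif starting 196 bases and a PU box starting 61 bases before the start, the latter on the opposite strand. The Inpp5d promoter held a GATA motif 155 bases and a PU box 20 bases before the start. The window of Pik3cg held an E-box 50 bases before the start and neither of the others. A further listed start of Pik3cg, whose window overlaps the first, had PU boxes at 189 and 152 bases.

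Of the 8 genes 7 had an entry in the table, with 11 windows in all. Counting every window of a gene, a PU box was found for 3 of 7 genes (Pik3cg, Plek and Inpp5d), beside 23.3% of the 32851 windows in the table. GATAA was found for 3 (Pik3r1, Plek and Inpp5d), beside 22.6% of windows, and CACATG for 2 (Pik3cg and Pik3cd), beside 12.3%. The shorter ETS core GGAA, which lies within every PU box, was found for 7 of 7 and in 93.4% of windows. The AP-1 motif TGANTCA was found for Pik3ca alone (6.75% of windows), and the RUNX motif TGTGGT for none (14% of windows). Genes with several windows have more chances of a match, the motifs were chosen with the sequences in view, and a match is no evidence of binding.

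Around these genes, 9 lists of the pathway were read in the same way, from receptors to PIP3 effectors. Of 133 genes listed 122 were measured, and 62 of these had 1 level on all 3 arrays, as did 47.9% of all genes. Against progenitors 3 were 4-fold or more higher in mature cells (Kit, Fcer1a and Dapp1) and 0 lower as measured. The shares of all genes were 0.834% and 0.113%. At 2-fold 9 were higher and 0 lower, beside 1.93% and 0.509% of all genes. Against innate lymphoid cells 4 were 4-fold or more higher in mature cells (Kit, Fcer1a, Ms4a2 and Dapp1) and 1 lower (Il7r) as measured. Here the shares of all genes were 0.573% and 0.401%. Set against the median of the dimmer array, Dapp1 was at least 1.18-fold and 1.19-fold higher and Ms4a2 at least 3.54-fold higher than in innate lymphoid cells, so these do not reach 4-fold by that bound, whereas Kit, Fcer1a and Il7r do. Against innate lymphoid cells at 2-fold, 8 were higher in mature cells (all genes 1.34%) and 1 lower (1.26%). Between progenitors and innate lymphoid cells Il7r alone reached 4-fold, and Il7r, Nras and Rac2 reached 2-fold, all lower in progenitors. Of all genes 0.888% and 1.88% were lower in progenitors at these sizes. The lists were chosen with earlier results known, so nothing is read from the shares. The median difference was 0 in each comparison, as it was over all genes, since most values are ties.

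The receptor list held differences in both directions. Kit, the stem cell factor receptor, was at 6.88 on the progenitor array, 10.29 on the mature array and 6.63 on the innate lymphoid array. As measured, this is a difference of 10.6-fold and 12.6-fold in favour of mature cells. The lower levels of Kit, like those of Plek, may be background, so these folds may be lower bounds. Fcer1a, the IgE-binding chain, was at 5.37, 8.87 and 5.05 in the same order, at least 5.89-fold and 5.94-fold. Ms4a2, the β chain of that receptor, was at 6.25, 8.13 and 5.92. These receptor genes were dim in progenitors although c-kit and FcεRI protein were used to sort them.

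Lat2, an adaptor below both receptors, was at 8.52 on the progenitor array, 9.71 on the mature array and 7.84 on the innate lymphoid array. Fcer1g, the signalling γ chain, was at 7.31, 8.30 and 7.05. Il7r, a cytokine receptor of lymphoid cells that served as a sort marker (CD127), ran the other way at 5.89, 5.76 and 8.72. Of the 16 measured genes of this list, 2 were 4-fold or more higher in mature cells than in progenitors (all genes 0.834%). Against innate lymphoid cells 3 were higher in mature cells (all genes 0.573%) and 1 lower (0.401%).

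Of the 22 measured G protein, G protein-coupled receptor and Ras genes, none reached 4-fold as measured. Gnai3, an inhibitory G protein α subunit, missed it narrowly at 6.60 on the progenitor array, 8.59 on the mature array and 6.60 on the innate lymphoid array, which is 3.96-fold. The lower levels of Gnai3 may be background, so this fold may be a lower bound. Its paralogue Gnai2 was highest in innate lymphoid cells, at 6.91, 6.87 and 7.82. Gnb1, a G protein β subunit, was at 7.10, 8.11 and 7.88, and the Ras gene Nras at 7.20, 7.88 and 8.50. For these last genes the progenitor array was the lowest, and the mature and innate lymphoid arrays lay within 2-fold of each other.

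Among 22 measured PIP3 effectors, Btk, a PH domain kinase below FcεRI, was at 5.94 on the progenitor array, 7.51 on the mature array and 5.84 on the innate lymphoid array. Dapp1, a PH domain adaptor, was at 4.50, 6.56 and 4.50, just past 4-fold as measured, with its mature level close to the median and the others, exactly tied, far below it. Both genes were above the median on the mature array alone, as Pik3cg was. Rac2, a small GTPase of blood cells activated below PI3K, differed from them, at 7.48, 8.78 and 8.67. It was 2.46-fold lower in progenitors than in mature cells, which exceeded innate lymphoid cells by 1.08-fold.

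**Figure D3:**
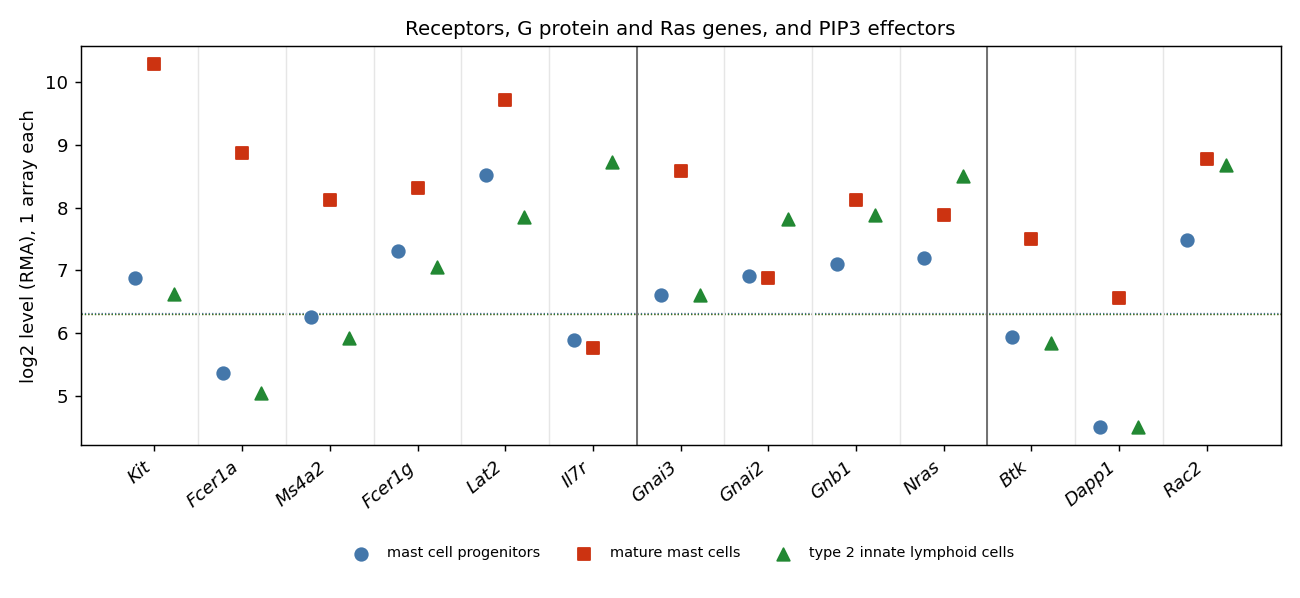
Log2 level of receptor genes (left), G protein and Ras genes (middle) and PIP3 effectors (right), with 1 point per population and dotted lines at the array medians. Kit, Fcer1a, Ms4a2, Gnai3, Btk and Dapp1 have their highest level in mature mast cells, Dapp1 only just above the median, Il7r has its highest in innate lymphoid cells, and Gnb1, Nras and Rac2 are lowest in progenitors.

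The remaining lists moved little. All 5 other class I genes, among them the regulatory chain Pik3r2 at 6.86 and the adaptor Pik3ap1 at 7.27, were tied on the 3 arrays, as were 4 of 5 genes of the class II and III kinases. Of 19 other phosphoinositide phosphatases 12 were tied and the largest difference was 0.18, for Inpp4b. Inppl1, which encodes SHIP2, was at 6.75 on the progenitor array, 6.62 on the mature array and 6.75 on the innate lymphoid array, and thus did not follow its relative Inpp5d.

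Of 10 phosphoinositide kinases the largest difference was 0.43, for Pip4k2a, at 7.31, 7.73 and 7.37. Of 11 further PH domain and pleckstrin relatives none reached 2-fold, and Plek2, the paralogue of Plek, was at 6.82, 6.61 and 6.61. Among 12 partners of SHIP1 the largest difference was 0.63, for the adaptor Grb2, at 7.54, 7.87 and 7.24. Dok3, an adaptor that binds SHIP1, was at 8.31, 7.92 and 8.31.

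**Figure D4:**
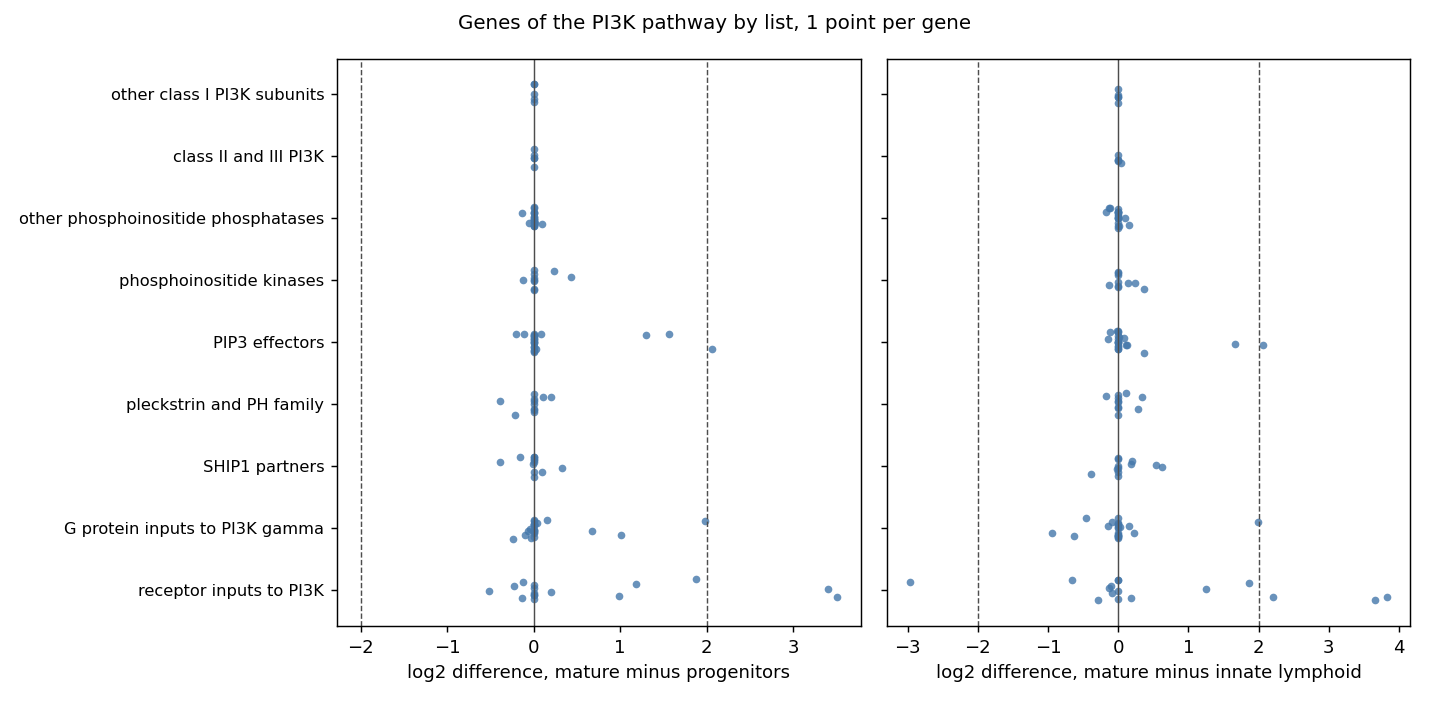
Log2 difference of mature mast cells minus progenitors (left) and minus innate lymphoid cells (right) for each gene of the 9 pathway lists, with dashed lines at 4-fold and points spread vertically for legibility. Most points lie at or next to 0, and those beyond 1 belong to the receptor, G protein and PIP3 effector lists.

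By a rule of likeness, the 5 genes closest to a gene past 4-fold were taken by Euclidean distance over the 3 log2 levels, leaving out provisional names. For Plek these were Gpr141b (distance 0.35), Kit (0.40), the olfactory receptor gene Olfr1380 (0.44), Capns1 (0.58) and Ndst2 (0.62), an enzyme of heparin sulfation. Ndst2 was at 6.81 on the progenitor array, 10.59 on the mature array and 6.64 on the innate lymphoid array. For Pik3cg they were the mucin gene Muc13 (0.22), Edem3 (0.28), Pphln1 (0.35), the primase gene Prim1 (0.38) and Ms4a2 (0.38). The distance depends on level as well as pattern and rests on 3 arrays. Within a distance of 1 lay 19 genes for Plek and 64 for Pik3cg.

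The sorted populations carried the transcripts of their labels in part. Cpa3, the mast cell carboxypeptidase gene, was at 12.30 on the progenitor array, 12.83 on the mature array and 5.28 on the innate lymphoid array. Of 12 mast cell markers 9 were above 8 in mature cells, 5 in progenitors and 0 in innate lymphoid cells. Of 13 innate lymphoid markers 5 were above 8 in innate lymphoid cells and 0 in the others.

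Since pleckstrin is abundant in platelets and other leukocytes, markers of other cell types were read beside it. Of 10 measured platelet and megakaryocyte markers 5 were above the median on each array, and 6 were tied. Their summed level, as log2 of the sum of linear levels, was 9.94 on the progenitor array, 9.86 on the mature array and 9.86 on the innate lymphoid array. The platelet genes Pf4 and Itga2b were at 6.63 and 7.10 on each array. The summed level of macrophage markers was 10.10, 9.96 and 10.00, that of B cell markers 9.64, 9.59 and 9.62, that of neutrophil and eosinophil markers 9.52, 9.46 and 9.49, and that of T and NK cell markers 9.82, 9.77 and 9.81. No gene of these 5 lists was above 8 on any array. Array background leaves no gene at 0, so the absence of these transcripts cannot be read from these levels. Among basophil and progenitor markers Myb, a progenitor transcription factor, was at 6.38 on the progenitor array, 8.21 on the mature array and 6.64 on the innate lymphoid array by 1 of its 2 probe sets, and no other was above 8. The other probe set was at 6.92, 6.97 and 6.97. Itgb7, the gene of the integrin chain that was high in the progenitor gate, was at 7.60 on the progenitor array and 7.82 on each of the others.

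**Figure D5:**
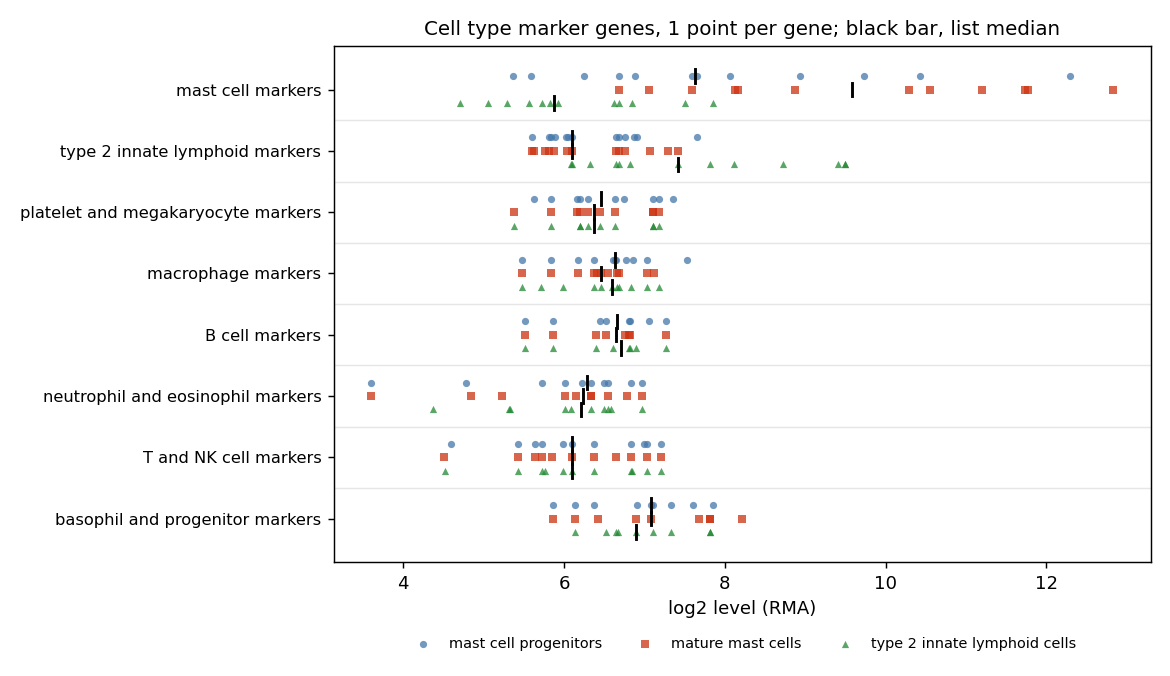
Log2 level of cell type marker genes, with 1 point per gene and population and a black bar at each list's median. Mast cell markers lie highest in mature mast cells (median 9.58) and innate lymphoid markers in innate lymphoid cells (median 7.41). Each gene of the other lists differs by less than 2-fold across the arrays, apart from Myb, which is higher in mature cells.

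Over all genes the progenitor array was lower for more bright genes. Of 489 genes above 8 on the mature and innate lymphoid arrays and within 2-fold of each other there, 8.38% lay 4-fold or more below both on the progenitor array. Taken in the same way, the share was 0% of 371 genes for the mature array and 0.746% of 402 for the innate lymphoid array. Plek, Pik3cg and Inpp5d were at 6.95, 6.17 and 7.21 on the progenitor array. On the innate lymphoid array they were at 6.95, 6.07 and 7.25. Whether the shortfall of the progenitor array lowered their progenitor levels was not tested. Genes of olfactory and vomeronasal receptors, whose known role is in sensory neurons, passed the 4-fold rule in 1.87% of 1394 cases between progenitors and mature cells, where 0.947% of all genes did in either direction. The shares were 1.65% and 0.974% between mature and innate lymphoid cells, and 0.861% and 1.1% between progenitors and innate lymphoid cells. A single difference of 4-fold is therefore seen on these arrays among genes with no known part in these cells.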

How the data were processed

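RNA of 3 pooled, sorted populations was amplified and hybridised to 1 array each. For 41345 probe sets the authors deposited log2 levels, for which the submitters' processing notes name RMA without software or version. That the scale is log2 was inferred from the range of 2.23 to 13.7. By the platform's gene annotation, 23521 probe sets name 1 gene, 1814 several, and 16010 are unnamed. Only single-gene probe sets were used, and the brightest by mean stood for a gene, which gave 22180 genes. Entrez identifiers of 23328 probe sets matched RefSeq of GRCm38.p6, with 0 symbols changed.

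Log2 levels were subtracted between arrays with Python 3.11.15 and pandas 2.3.3, and no test was run. The counting code was checked on simulated arrays with large planted shifts in bright genes. That checks the code, not how the 4-fold rule performs on these arrays. The 8 genes, the lists and the rules were chosen with earlier results of these data known. All 8 genes are given. From each list, genes past 4-fold and otherwise up to 4 with the largest differences above the median could be named, and for each described gene past 4-fold its 5 nearest genes. The genes singled out from these were picked with their values known. Pax5 and Itgb7 were named outside that rule, also with their values known. Alternatives were other floors, scalings, sizes and probe set rules. The number of arrays limits the precision.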

Additional observations from a re-analysis of the deposited data

How the results depend on the processing

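The count of the 8 genes at least 4-fold higher in mature mast cells stayed at 2, Pik3cg and Plek, in both comparisons with no floor, with a floor at each array's 75th percentile, with arrays centred on 1 median, after quantile normalization and with the mean over probe sets, and was 3 at 2-fold. The counts in the other directions stayed at 0. The 24 pairwise log2 differences of the 8 genes moved by at most 0.06 under centring, quantile normalization and probe set means. For the tied genes, whose difference is 0, and for Pik3r1, the sign under rescaling has no meaning. As each gene has 1 probe set, no other probe set could be tried and the mean changes nothing. Over all genes, those at least 4-fold higher in mature cells numbered 178 to 190 against progenitors and 120 to 133 against innate lymphoid cells across alternatives. Leaving out genes tied on all 3 arrays, chosen after seeing the data, raised the shares to 1.6% and 1.1%. No paired analysis was possible because each population has 1 array. For the same reason no replicate could be left out. Dim levels near the array background limit what can be seen for Pik3cd, Pik3ca and the low arrays of Pik3cg. The same may hold for Pik3r5, Pik3r6 and the lower levels of Plek and Inpp5d, which were no higher than that of Pax5.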
